A study of Mus musculus with 2 samples.

Results

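Zbtb17, the gene of the transcription factor Miz-1, was read together with 9 genes of the MYC, MAX and MXD network: Myc, Mycn, Max, Mnt, Mxd1, Mxd3, Mxd4, Mlx and Mga. A probe set was taken as belonging to a member when the array annotation gives that gene alone as its symbol or gene identifier. All 10 genes were found, with 26 probe sets out of 45101 on the array. The RNA came from 1 array of Miz1 knockout DN3 thymocytes and 1 array of wild-type DN3 thymocytes, both on the C57BL/6 background, so there was no replicate and no difference between genotypes could be tested. DN3 thymocytes are T cell precursors, sorted here as lineage-negative, CD44-negative, CD25-positive cells. The knockout animals are described as carrying a Miz1 allele without its POZ domain. The sources used here do not give the driver of the deletion, the age of the animals or the number of animals behind each array. The comparison asks how loss of Miz-1 activity alters gene expression in DN3 cells. The arrays also differ in sex. Xist, which is transcribed from the inactive X chromosome, had a signal of 55300.0 in knockout cells and 423 in wild-type cells, and the Y-linked gene Kdm5d read 36.7 in knockout cells and 1782 in wild-type cells. The sex of the animals and the genotype therefore cannot be told apart in any value below, although all 10 members lie on autosomes.

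MYC and its relative MYCN are basic helix-loop-helix leucine zipper proteins that bind DNA only as dimers with MAX, at the E-box sequence CACGTG, where they activate genes of growth and cell division. The MXD proteins, MNT and MGA compete for MAX and repress from the same sites, the MXD proteins by recruiting SIN3 and histone deacetylases. MLX is a MAX-like partner of MNT, MXD1 and MXD4. Miz-1 is a zinc finger protein with an amino-terminal POZ domain that activates genes by itself and represses them when MYC is bound to it, the cell cycle inhibitor genes Cdkn1a and Cdkn2b being the textbook examples.

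The promoter windows of the members, which run from 250 bases before to 50 bases after the annotated start in RefSeq on GRCm38.p6, were searched on both strands for the E-box CACGTG and for the E2F letters TTCGCGC and TTGGCGC. A window was found for 9 of the 10 members. The E-box stood in 4 of these 9 members (44.4%), counted by gene, and in 7.15% of all 32851 windows in the table, counted by window. The windows cover 27025 genes, and no share by gene was taken over all of them. The windows of these 4 members are shown because they carry the binding letters of the network itself. The E-box is in capitals, and each window is read 5′ to 3′ on the strand of the gene. The E-box begins 3 bases before the start of Max, 40 before that of Mlx, 123 before that of Mnt and 219 before that of Mxd4. The windows lie at chr12:76962199-76962498 (minus strand) for Max, chr11:101087040-101087339 (plus) for Mlx, chr11:74830674-74830973 (plus) for Mnt and chr5:34187661-34187960 (minus) for Mxd4.
Max: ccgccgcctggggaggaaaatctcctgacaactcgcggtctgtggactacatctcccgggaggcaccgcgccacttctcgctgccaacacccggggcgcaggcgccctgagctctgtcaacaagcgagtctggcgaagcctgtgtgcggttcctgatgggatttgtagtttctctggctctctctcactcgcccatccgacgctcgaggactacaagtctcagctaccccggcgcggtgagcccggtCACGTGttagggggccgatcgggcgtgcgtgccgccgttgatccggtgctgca
Mlx: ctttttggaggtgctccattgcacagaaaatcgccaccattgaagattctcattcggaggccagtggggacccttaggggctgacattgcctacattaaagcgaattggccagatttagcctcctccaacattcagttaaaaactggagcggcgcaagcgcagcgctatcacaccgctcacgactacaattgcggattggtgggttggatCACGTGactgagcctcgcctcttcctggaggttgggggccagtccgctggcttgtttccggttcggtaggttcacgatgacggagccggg
Mnt: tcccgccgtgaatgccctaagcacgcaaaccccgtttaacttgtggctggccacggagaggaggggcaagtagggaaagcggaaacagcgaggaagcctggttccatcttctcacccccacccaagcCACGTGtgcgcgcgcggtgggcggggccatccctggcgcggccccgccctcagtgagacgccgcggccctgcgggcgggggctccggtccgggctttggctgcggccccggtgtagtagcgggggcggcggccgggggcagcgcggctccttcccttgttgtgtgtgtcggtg
Mxd4: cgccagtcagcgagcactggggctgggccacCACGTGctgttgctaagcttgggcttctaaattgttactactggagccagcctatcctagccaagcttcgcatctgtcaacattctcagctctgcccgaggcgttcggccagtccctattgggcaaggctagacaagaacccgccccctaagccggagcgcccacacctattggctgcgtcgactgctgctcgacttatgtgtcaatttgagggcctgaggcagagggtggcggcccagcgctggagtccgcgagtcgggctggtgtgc

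Mycn was the only member of the 9 whose window held the E2F letters, which occur in 3.89% of all windows. It had 3 matches, beginning 182, 179 and 167 bases before the start, and the first and the second overlap on opposite strands. The window at chr12:12941787-12942086 (minus strand) is shown because Mycn had the highest ratio of the network, with the matches in capitals.
Mycn: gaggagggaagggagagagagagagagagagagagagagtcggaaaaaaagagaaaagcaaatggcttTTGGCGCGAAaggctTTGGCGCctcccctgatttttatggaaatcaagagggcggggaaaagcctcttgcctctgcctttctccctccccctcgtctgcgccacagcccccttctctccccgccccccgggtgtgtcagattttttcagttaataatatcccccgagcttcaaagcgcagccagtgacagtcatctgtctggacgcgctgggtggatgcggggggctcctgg
None of the 4 members with an E-box differed by 2-fold by its brightest probe set, although 2 of the 4 Mxd4 probe sets did. Of the members with no CACGTG in the window, Zbtb17, Mycn, Mxd1 and Mxd3 did by the brightest probe set and Mga did not. The 2 Zbtb17 probe sets disagree, and the Mxd1 ratio is a lower bound from a single probe set. The share of genes past 2-fold with and without the E-box was not taken over the array. These counts therefore show no link between the letters and the ratios. A match in these letters is a description of the window and not a binding site.

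Across the network, Mycn and Mxd1 (2 of 10 members) passed 2-fold on the higher side in the knockout, and Mxd3 and Zbtb17 (2 of 10) on the lower side. The second Zbtb17 probe set went the other way. The brightest probe set of each gene, by mean signal, stood for the gene, and values below a floor of 394, the median of all non-control signals, were raised to it before the ratio was taken. A gene is called measured when the mean of its 2 signals is above the floor, and by this rule all 10 members were measured. Of 10770 measured genes on the array, 7.23% passed 2-fold on the higher side and 5.65% on the lower side. Median centring of the arrays gave 566 genes higher and 927 lower on the whole array, against 779 higher and 608 lower on the deposited scale, and the same 4 members stayed past 2-fold. The median log2 ratio of the 10 members was -0.33, against 0.00021 for all measured genes, with a range from -1.57 to 1.84. The only repeated measurement is that of several probe sets of a gene, whose log2 ratios had a pooled SD (root mean square) of 0.57 on floored values, taken over 4514 genes. That SD describes probe sets on the same 2 arrays and holds no spread between animals.

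**Figure D1:**
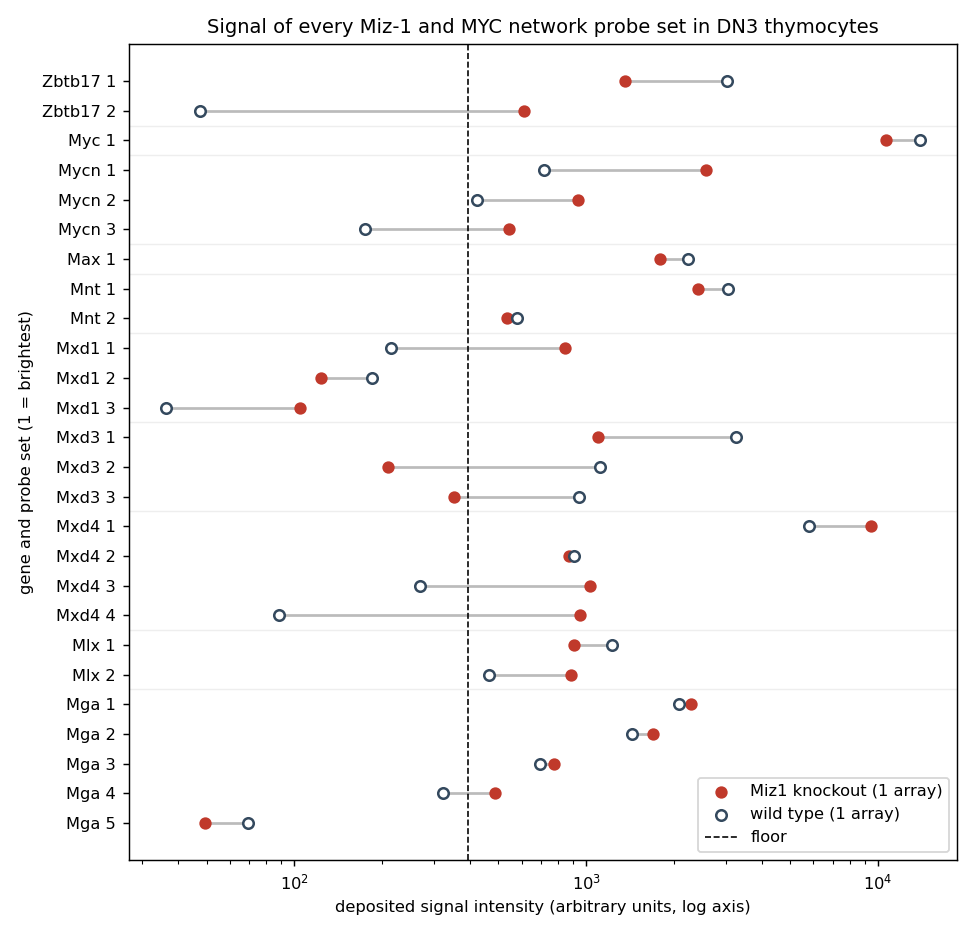
Deposited signal intensity (log axis, arbitrary units) of all 26 probe sets of the 10 members, with the Miz1 knockout array as filled points and the wild-type array as open points; numbers rank a gene's probe sets by mean signal and the dashed line is the floor of 394. All 3 Mycn probe sets are brighter in the knockout and all 3 Mxd3 probe sets are dimmer in it.

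At the level of single probe sets, 23 of the 26 had a signal above the floor on at least 1 array. Of these 23, 5 passed 2-fold on the higher side in the knockout, 4 on the lower side and 14 differed by less. Over all 21870 named probe sets that bright, 6.45% did so on the higher side and 4.72% on the lower. The higher ones belonged to Mycn, Mxd1 and Mxd4, and the lower ones to Mxd3 and Zbtb17. Of these 9 probe sets past 2-fold, 5 were above the floor on the brighter array only, so their ratios are lower bounds. The plot of signals by probe set shows that 2 Mxd1 probe sets and 1 Mga probe set lay under the floor on both arrays.

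Zbtb17 itself was read by 2 probe sets that went opposite ways. The brighter one had a signal of 1361 in knockout cells and 3042 in wild-type cells, a log2 ratio of -1.16 or 2.23-fold lower. Of all measured genes 3.38% had a lower ratio than this one. The dimmer one read 610 in knockout cells and 47.6 in wild-type cells, a floored log2 ratio of 0.63, and its mean signal was below the floor. The 2 probe sets therefore give no single direction for the gene. The sources used here do not say where their sequences lie relative to the deleted part of the allele, so neither checks the genotype labels.

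Both MYC family members were measured, with ratios of opposite sign. Myc, the proto-oncogene that is induced when DN3 cells pass beta-selection, had a signal of 10639 in knockout cells and 13887 in wild-type cells. Its log2 ratio of -0.38 lay within the SD between probe sets of a gene, and 27.7% of measured genes had a lower one. Myc had only 1 probe set, so nothing else on the arrays checks its value.

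Mycn, the paralog that is abundant in embryonic and progenitor tissue, was higher in the knockout by every probe set. The brightest had a signal of 2571 in knockout cells and 718 in wild-type cells, which is 3.58-fold higher (log2 ratio 1.84). The second read 935 in knockout cells and 423 in wild-type cells, 2.21-fold higher. It fell short of 2-fold under median centring (log2 ratio 0.99) and with a floor at the 60th percentile (0.77). The third read 543 in knockout cells and 175 in wild-type cells, at least 1.38-fold higher. Its wild-type signal and its mean signal were under the floor. Of all measured genes, 0.799% had a higher ratio than Mycn, which ranked 87 from the top. With 1 RNA sample per genotype, more cells expressing Mycn and more Mycn RNA per cell cannot be told apart. Markers of the earlier DN1 and DN2 progenitors had a summed signal of 2997 in knockout cells and 3137 in wild-type cells over 6 genes. Of these 6 genes 3 were measured and none differed by 2-fold. The sum also holds genes with a mean below the floor, whose signals went both ways. Lmo2 read 616 in knockout cells and 99.9 in wild-type cells, and Flt3 read 67.6 in knockout cells and 554 in wild-type cells. The part of progenitor cells in the Mycn value was not tested.

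Max, the obligate partner of MYC, differed by less than 2-fold. Its single probe set had a signal of 1783 in knockout cells and 2239 in wild-type cells, a log2 ratio of -0.33. Mlx, the MAX-like partner, was read by 2 probe sets that disagreed. The brighter had a signal of 905 in knockout cells and 1220 in wild-type cells, a log2 ratio of -0.43. The other read 887 in knockout cells and 464 in wild-type cells, a log2 ratio of 0.93. No direction can be given for Mlx.

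The MXD repressors went opposite ways. Mxd3, which is transcribed in dividing precursor cells during S phase, was lower in the knockout by each of its 3 probe sets. The brightest had a signal of 1094 in knockout cells and 3251 in wild-type cells, 2.97-fold lower (log2 ratio -1.57). The second read 209 in knockout cells and 1112 in wild-type cells, at least 2.82-fold lower. The third read 352 in knockout cells and 947 in wild-type cells, at least 2.40-fold lower. The second and the third passed the floor on the wild-type array only, so their sizes depend on it, and with a floor at the 60th percentile the third had a log2 ratio of -0.78 and was short of 2-fold. Mxd3 ranked 90 from the bottom among measured genes. Among cell division genes of the lists, the mitotic kinase gene Plk1 was 3.42-fold lower on the same arrays. Aurka, another mitotic kinase gene, was 1.78-fold lower, short of 2-fold, and the cyclin gene Ccnd2 was 2.67-fold higher, each by its brightest probe set. The part of cell division in the Mxd3 value was not tested.

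Mxd1, the founding MXD gene, which is induced when cells stop dividing and differentiate, was higher in the knockout by the only probe set that was read. It had a signal of 846 in knockout cells and 214 in wild-type cells, at least 2.15-fold higher, since the wild-type signal was under the floor. The other probe sets read 123 and 104 in knockout cells and 184 and 36.4 in wild-type cells. Both were under the floor on both arrays and have no order. The Mxd1 call is therefore a lower bound from 1 probe set, and with a floor at the 60th percentile the gene was no longer measured.

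Mxd4, another MXD gene of differentiating and resting cells, had uneven ratios. Its brightest probe set had a signal of 9471 in knockout cells and 5807 in wild-type cells, a log2 ratio of 0.71 or 1.63-fold, which is short of the 2-fold rule. A second read 873 in knockout cells and 905 in wild-type cells, a log2 ratio of -0.05. The remaining ones read 1033 and 951 in knockout cells and 269 and 88.5 in wild-type cells. Those ratios were lower bounds, at least 2.62-fold and at least 2.41-fold higher, both against wild-type signals under the floor. The 4 probe sets thus ranged from -0.05 to at least 1.39. Without the probe set whose identifier marks several transcripts, Mxd4 would be read by the second one, at -0.05.

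**Figure D2:**
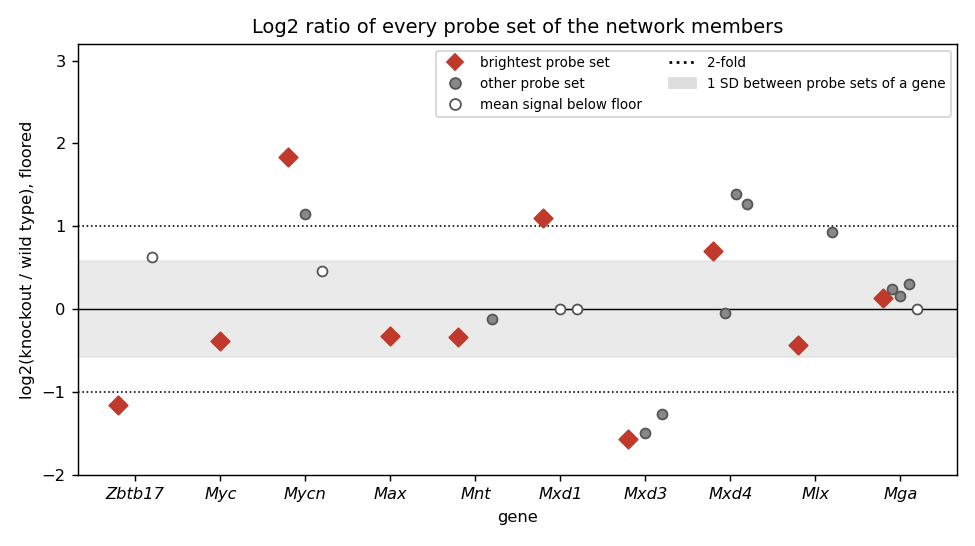
Log2 ratio of knockout over wild type (values floored at 394) for each probe set of each member. Diamonds are the brightest probe set of a gene, circles the others and open symbols those with a mean below the floor. With 1 signal under the floor, the ratio is a lower bound on the size of the difference. With both under it, the ratio is set to 0 by the floor. Dotted lines mark 2-fold and the grey band 1 SD (0.57) between probe sets of a gene. Mycn stands highest at 1.84 and Mxd3 lowest at -1.57, and the probe sets of Zbtb17, Mlx and Mxd4 disagree.

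The other MAX-binding repressors differed by less than 2-fold on the arrays. Mnt, the broadly expressed antagonist of MYC, had a signal of 2421 in knockout cells and 3058 in wild-type cells by its brighter probe set. Its log2 ratios were -0.34 and -0.12. Mga, a very large protein that joins MAX to a Polycomb-type repressor complex, had a signal of 2286 in knockout cells and 2080 in wild-type cells by its brightest probe set. The log2 ratios were 0.14, 0.24 and 0.16 for the probe sets above the floor on both arrays. A further one read 486 in knockout cells and 322 in wild-type cells, a log2 ratio of at least 0.30, since the wild-type signal was under the floor. The remaining one lay under the floor on both arrays. Under median centring the value of Mga turned to -0.02, with the median of all measured genes at -0.16.

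Relatives of the network that are not members were also read. Mxi1, the remaining MXD family gene, had a signal of 2472 in knockout cells and 3009 in wild-type cells, with log2 ratios of -0.28 and -0.19 by its 2 probe sets. Mlxip, which encodes the glucose-sensing MLX partner MondoA, had a signal of 2373 in knockout cells and 1301 in wild-type cells, a log2 ratio of 0.87. Mlxipl, the liver-type MLX partner ChREBP, read 105 in knockout cells and 635 in wild-type cells, with a mean below the floor. Mycl, the third MYC family gene, had a mean below the floor in all 3 probe sets, the brightest of which read 58.7 in knockout cells and 442 in wild-type cells. No gene of these 4 passed 2-fold on floored values.

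The listed genes that MYC is known to activate had mostly negative ratios. The list was drawn up with earlier results of these arrays known, so its counts are a description and no independent evidence. Of 30 measured targets, 8 were at least 2-fold lower (26.7%) and 1 was at least 2-fold higher (3.33%), beside 5.65% and 7.23% of all measured genes. Their median log2 ratio was -0.60, against 0.00021 for all measured genes, and 25 of the 30 had a negative ratio, against 5384 of 10770. Nme1, a nucleoside diphosphate kinase gene, had a signal of 4236 in knockout cells and 14757 in wild-type cells, 3.48-fold lower, and its second probe set had a log2 ratio of -0.83. Shmt2, of mitochondrial one-carbon metabolism, read 2901 in knockout cells and 8286 in wild-type cells, 2.86-fold lower, with log2 ratios between -1.51 and 0.28 over its 4 probe sets. Ccnd2, which encodes cyclin D2, was the one past 2-fold on the higher side, with 27666 in knockout cells and 10377 in wild-type cells, 2.67-fold higher. Its brightest probe set was also its highest: the 7 had log2 ratios from 0.06 to 1.41, and 3 of them passed 2-fold. The classical target Odc1, of polyamine synthesis, had a log2 ratio of -0.83 by its brightest probe set, with a range from -1.30 to at least 0.72 over 3. The nucleolar gene Ncl had one of -0.61, and its 5 probe sets lay between -0.94 and -0.26 on floored values.

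Ratios on the arrays moved with signal, and most MYC targets are bright. Bright genes had lower ratios than dim genes: in the brightest 20% of measured genes the median log2 ratio was -0.21, and in the dimmest 20% it was 0.14. Of the 30 targets, 22 lay in the brightest 20%, and their median was -0.65. The next 20% held 4 targets with a median of -0.11, and the middle 20% held 4 with a median of -0.48. With 4 targets each, those medians cannot show whether the targets follow signal. Quantile and loess normalization, which are meant to take out such a trend, left a median of -0.34 and -0.31 for the list. For all measured genes those medians were -0.04 and -0.03. Whether any trend remained in the brightest 20% after either of them was not examined. The counts of targets past 2-fold are for the deposited scale only. The part of signal in this result beyond these values was not tested.

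**Figure D3:**
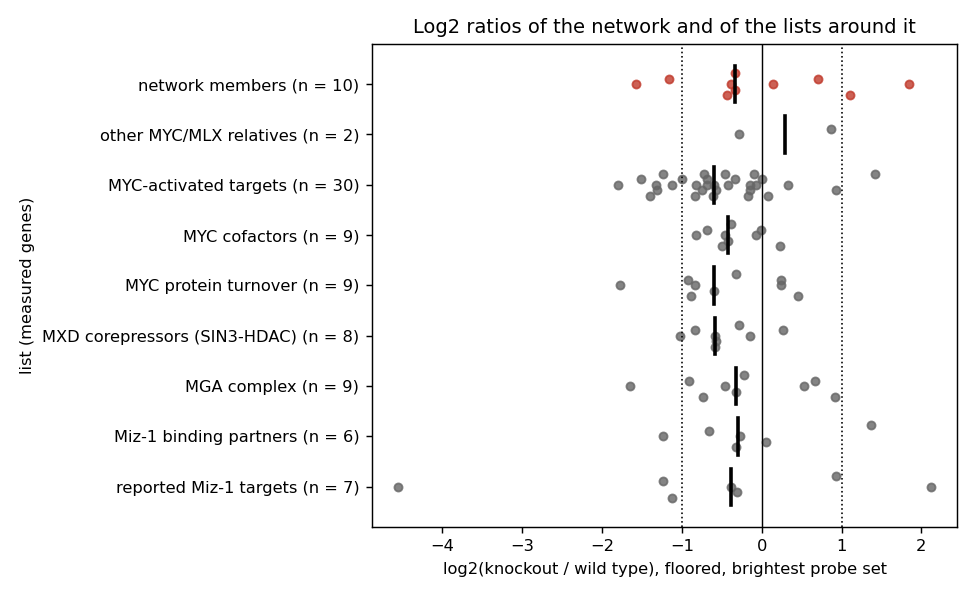
Log2 ratio of knockout over wild type (brightest probe set, floored) of the measured genes of the network and of 8 lists around it; each point is a gene, the black bar is the list median and dotted lines mark 2-fold. The 30 MYC-activated targets have a median of -0.60, while the 10 members spread from -1.57 to 1.84. All lists were chosen with earlier results of these arrays known.

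Proteins that work with the network were read from 4 further lists. Of all measured genes, 7.23% passed 2-fold on the higher side and 5.65% on the lower. Among them 5384 of 10770 had a negative ratio, and their median was 0.00021. With 8 or 9 measured genes in a list, 1 gene makes up 12.5% or 11.1% of it. Of 9 measured MYC cofactors, none differed by 2-fold, 8 had a negative ratio and the median was -0.42. Of 9 measured genes that control MYC protein stability, the mitotic kinase gene Plk1 was 3.42-fold lower (1622 in knockout cells and 5547 in wild-type cells) and none was 2-fold higher. The median of this list was -0.59, beside -0.60 for the MYC targets. Fbxw7, which encodes the ubiquitin ligase subunit that marks MYC for degradation, had a log2 ratio of 0.24, and Huwe1, a ubiquitin ligase for both MYC and Miz-1, one of -0.32. Of 8 measured subunits of the SIN3 and histone deacetylase complex, only Sap30 passed 2-fold, at 2.03-fold lower (10614 in knockout cells and 21523 in wild-type cells), and the list's median was -0.58. Of 9 measured subunits of the MGA complex, L3mbtl2 was 3.13-fold lower (560 in knockout cells and 1751 in wild-type cells), none was 2-fold higher and the median was -0.32.

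Partners and reported targets of Miz-1 did not go one way. Of the measured partners, 16.7% passed 2-fold on the higher side and 16.7% on the lower. For the measured reported targets these shares were 14.3% and 42.9%, beside 7.23% and 5.65% of all measured genes. Among 6 measured partners, Zbtb4, a POZ zinc finger gene, was 2.59-fold higher by its brightest probe set (1158 in knockout cells and 447 in wild-type cells), with a range from 0.13 to 1.37 over 3 measured ones. Npm1, the nucleolar partner, which is also among the MYC targets, was 2.36-fold lower (51825 in knockout cells and 122381 in wild-type cells). Bcl6, a repressor that binds Miz-1, was below the floor, and Gfi1, another, had a log2 ratio of 0.06. Among 7 measured reported targets, Cdkn1a was 4.34-fold higher, with 8627 in knockout cells and 1987 in wild-type cells. Rpl22 and Vps28 were 23.4-fold and 2.35-fold lower, and Vamp4 was the remaining one past 2-fold, on the lower side, by 1 of its 3 probe sets, with log2 ratios from -1.12 to 0.07. The brightest probe set of Bcl2, an inhibitor of apoptosis, was short of 2-fold, with 7212 in knockout cells and 3773 in wild-type cells (log2 ratio 0.93). The other 4 of its 5 probe sets were at least 2-fold higher, up to a log2 ratio of 1.99. Cdkn2b read 211 in knockout cells and 35.1 in wild-type cells, both under the floor. This list was drawn up with earlier results of these arrays known, and it mixes activated and repressed targets.

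Markers of DN3 cells were read on both arrays. Of 10 DN3 markers, 9 had a probe set and all 9 were measured, with log2 ratios from -0.40 to 2.35, the sort marker Il2ra being 4.61-fold higher. Cd44 read 331 in knockout cells and 424 in wild-type cells, with a mean below the floor. Of 39 markers of 9 other cell populations, 33 had a probe set and 19 were measured. Of those measured, 4 (21.1%) passed 2-fold on the higher side and 1 (5.26%) on the lower. The shares over all measured genes were 7.23% and 5.65%. The summed signal of the 33 markers was 26655 in knockout cells and 19472 in wild-type cells, and the part of other cells in the members' values was not tested. Of the 4 on the higher side, 2 were myeloid markers, out of 3 measured.

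Under other ways of processing the arrays, the 4 members past 2-fold kept the direction of their brightest probe set wherever they had a value. That of Zbtb17 stayed between -1.32 and -1.16, while its second probe set passed 2-fold on the higher side when the floor was set at the lower quartile (2.36) or left out (3.68). Mxd3 stayed between -1.73 and -1.44. Mycn stayed between 1.49 and 1.84. Mxd1 ranged from 1.03 to 1.98 over 7 settings, the higher values coming with a lower floor or none.

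**Figure D4:**
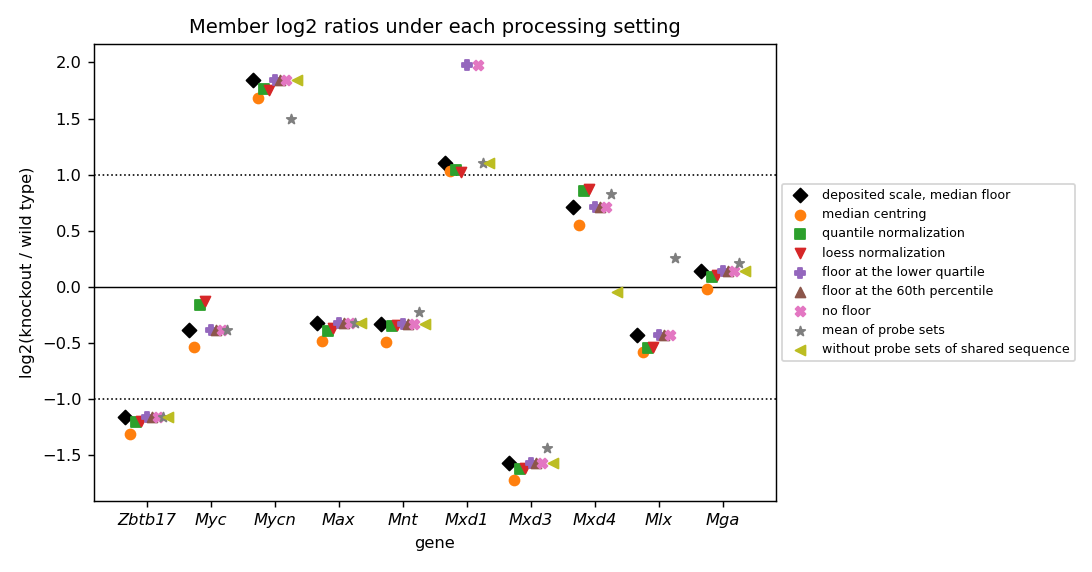
Log2 ratio of knockout over wild type of each member on the deposited scale with the median floor and under 8 other settings; each symbol is a setting and dotted lines mark 2-fold. Mycn, Mxd3 and the brightest Zbtb17 probe set stay past 2-fold throughout, and Mxd4 and Mlx move most among the members short of 2-fold.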

How the data were processed

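Total RNA of sorted thymocytes was amplified into biotin-labelled cRNA, per the labels' protocols. The authors deposited 1 linear signal intensity for each probe set, and GCOS 1.4 is named in the submitters' processing notes. Both arrays had a mean of 1000 after trimming 2% at each end, so the authors had scaled them to a common target; the sources used here do not give the settings. Of 45101 probe sets 64 controls were left out, and 34945 had 1 gene symbol (34741 matched by gene identifier to RefSeq). A further 932 had several and stayed unnamed, and 9160 had no gene symbol from the annotation.

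The members and lists were chosen with earlier results of these data known. With 1 array per genotype nothing was tested, and a difference was counted at 2-fold on floored ratios with the brighter array above the floor. Named were all members, 4 relatives, up to 2 genes per direction past 2-fold in each list and a few genes picked by name. Gfi1, Bcl6, Vamp4, Bcl2, Lmo2, Flt3 and Aurka were named after their values were seen. The number of arrays limits the precision. The code was tested on simulated data. Loess used a span of 0.3 (Python 3.11.15, numpy 2.4.6, pandas 2.3.3, statsmodels 0.14.6). Alternatives were 3 scalings, 3 floors and 2 ways of choosing probe sets.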

Additional observations from a re-analysis of the deposited data

How the results depend on the processing

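The 2 members at least 2-fold higher became 1 with a floor at the 60th percentile, because Mxd1 was no longer measured, and the 2 members at least 2-fold lower were the same count in all 8 settings. Over the whole array the genes at least 2-fold higher numbered 2682 with a floor at the lower quartile, 3360 with no floor and 504 with a floor at the 60th percentile, against 779. Those at least 2-fold lower numbered 2233 with a floor at the lower quartile, 2817 with no floor and 927 with median centring, against 608. A lower floor lets dim signals pass 2-fold by construction. Median centring moved the median of all measured genes to -0.16; relative to that shift Mga, at -0.02, stayed on the higher side. Mxd4 went to -0.05 without probe sets of shared sequence, and Mlx to 0.25 with the mean of its probe sets. Myc and Mlx have only probe sets with such an identifier and no value in that setting. The median of the MYC targets stayed between -0.76 and -0.31 in all 8 settings. No paired analysis was possible because each genotype has 1 array. The SD between probe sets of a gene was 0.74 in the dimmest 20% of measured genes, where Mxd1 lies, and 0.49 in the brightest 20%.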

Other observations

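Some genes of the lists, picked after their values were seen, had probe sets that point opposite ways or differ widely. E2f6, a DNA-binding subunit of the MGA complex, had a signal of 2885 in knockout cells and 1994 in wild-type cells for the brightest probe set (log2 ratio 0.53), whereas its other probe set had one of at most -1.71, the knockout signal being under the floor. Topbp1, a DNA damage response protein that binds Miz-1, had log2 ratios of -0.27 and -1.72. Tert, the telomerase gene that MYC activates, had a signal of 2026 in knockout cells and 1066 in wild-type cells, a log2 ratio of 0.93, on the other side from most MYC targets. Among the MYC targets, the glycolysis genes Hk2, Pkm and Ldha were 2.64-fold, 2.49-fold and 2.17-fold lower, and the spermidine synthase gene Srm was 2.49-fold lower, each by a single probe set.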
